A study of Mus musculus with 5 samples.

Results

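The comparison concerns inter-joint perichondrium and border-zone cartilage in the developing knees of GOF mouse embryos at E14.5. Regions were selected by their tags. In the 2 GOF animals, 26 regions were tagged as inter-joint perichondrium and 31 as border-zone cartilage, which is 57 of the 93 regions of GOF animals, and control animals gave 86 regions more. GOF replicates 1 and 2 gave 14 and 12 perichondrium regions, and 15 and 16 cartilage regions. RNA was measured by GeoMx digital spatial profiling, in which barcoded probes bound to a tissue section are released by light from chosen regions and sequenced. GOF animals carried Prrx1-Cre, a driver active in limb bud mesenchyme, and a Pdgfra gain-of-function allele (Pdgfra encodes a receptor tyrosine kinase for the growth factor PDGF). Control animals carried Prrx1-Cre alone, and 2 animals of each genotype were sampled in a single labelled batch. Regions were picked on sections stained for Sox9 protein and DNA. Differences in Sox9, and in cartilage genes expressed with it, are therefore not independent of how regions were chosen. The labels do not define the region tags.

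Perichondrium is the fibrous sheath of mesenchymal cells that surrounds a cartilage element, and it supplies new chondrocytes and, later, bone-forming cells. Where neighbouring elements meet, the mesenchyme forms a joint interzone, which is marked by the growth factor Gdf5 and gives rise to articular cartilage, ligament and synovium. Cartilage matrix is built of type II, IX and XI collagen fibrils with the proteoglycan aggrecan, link protein and matrilins. PDGF receptors signal in part through the MAP kinase cascade, which induces immediate early genes such as Egr1 and feedback inhibitors such as the Sprouty proteins.

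The table held 19346 gene targets besides the negative probe. Total recovered counts per region ran from 55471 to 617062, with a median of 217177. Median totals were 235516.5 and 219867 in perichondrium of GOF replicates 1 and 2, against 185024 and 152976 in cartilage. The negative probe, which measures background, had median values of 2.98 and 2.09 in perichondrium and 2.85 and 2.57 in cartilage. Levels below are means over the regions of an animal, in the authors' upper-quartile-normalised values, and are given for replicates 1 and 2 in that order. Differences are perichondrium minus cartilage in log2(value + 1), averaged per animal and fitted with limma, with the animal as a block. Each region mixes many cells, so fewer cells of a type and less RNA per cell cannot be told apart.

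In GOF knees the perichondrium regions had less RNA for cartilage matrix and more for some fibrous matrix, joint interzone and MAP kinase response genes. A total of 538 targets, or 2.78% of those tested, passed an adjusted p of 0.05. Of these, 282 were higher (1.46%) and 256 lower (1.32%) in perichondrium. All 538 had the same direction in both GOF animals, as did 54.9% of all targets. A call on the mean of 2 animals nearly requires that agreement, so it is no separate sign of replication. The median difference over all targets was 0.011. With 2 animals an exact paired permutation test cannot go below p = 0.5, so the adjusted p values depend on a spread that limma estimates across targets, region types and both genotypes. When the reference regions, with 1 region per animal and type, shared that spread in a fit with the animal as a random block, 2 targets passed, Susd5 and Peg10. DESeq2 on recovered counts called 249 and edgeR 630.

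Of the 3 markers that accompany the comparison, Tgfbi and Egr1 were higher and Matn4 was lower in perichondrium, and Egr1 is described with the MAP kinase response genes. Tgfbi, a secreted protein that binds collagen and integrins, averaged 59.3 and 48.1 in perichondrium, against 28.8 and 23.1 in cartilage. It was higher by 1.13 on the log2 scale (SE 0.08, adjusted p = 2.63e-17). Single regions overlapped. In replicate 1 perichondrium regions held 22.6 to 96.99 (median 57.98) and cartilage regions 4.84 to 67.7 (median 32.6), and 4 of 14 perichondrium regions exceeded every cartilage region. In replicate 2 the ranges were 20.98 to 82.5 (median 42.65) and 9.06 to 45.9 (median 18.85), and 5 of 12 exceeded every cartilage region. Matn4, the matrilin-4 matrix protein, averaged 111.2 and 220 in perichondrium, against 315 and 411 in cartilage. It fell by 1.21 (SE 0.09, adjusted p = 5.57e-18), with 6 of 14 and 7 of 12 perichondrium regions below every cartilage region of the same animal.

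**Figure D1:**
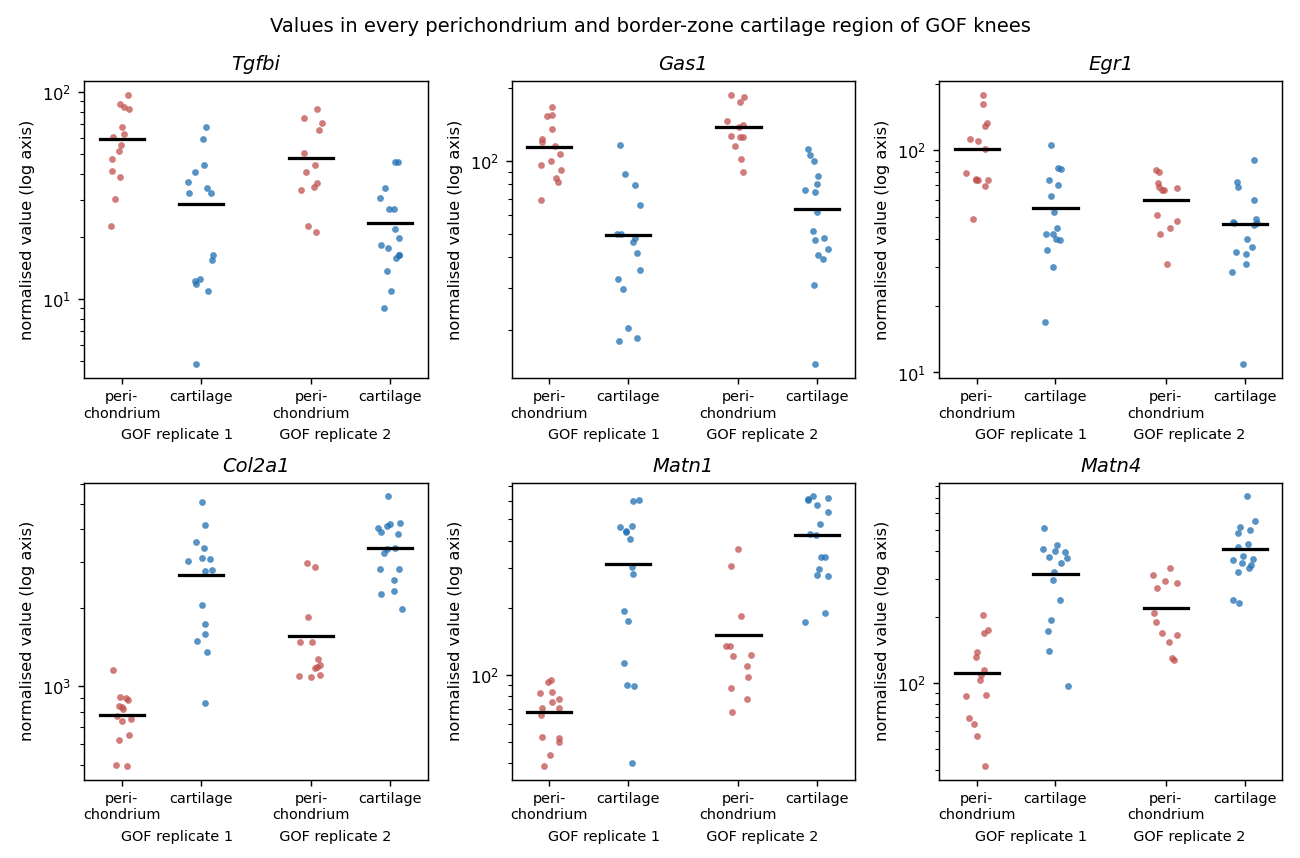
Normalised values (log axis) of 6 targets in each perichondrium and border-zone cartilage region of the 2 GOF animals, with 1 point per region and a bar at the mean of each animal and region type. Perichondrium means lie above cartilage means for Tgfbi, Gas1 and Egr1 and below them for Col2a1, Matn1 and Matn4 in both animals, and the points of the region types overlap for each of the 6 targets in at least 1 animal.

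The cartilage matrix lists had the lowest medians of the 32 gene lists in GOF perichondrium. The lists were chosen with earlier results of these data known, so their counts and medians are descriptions. Over all targets 1.46% were called higher and 1.32% lower, shares that belong beside each list count in GOF knees. All 7 cartilage collagen chains were called lower, with a median difference of -1.32. Col2a1, the main collagen of cartilage, averaged 776 and 1564 in perichondrium, against 2676 and 3406 in cartilage, and was 2.68-fold lower (-1.42, SE 0.07, adjusted p = 5.66e-26). In each animal 10 perichondrium regions lay below every cartilage region, and the rest overlapped with them. The type IX chains Col9a1 (-1.40), Col9a2 (-1.28) and Col9a3 (-1.44) and the type XI chains Col11a1 (-1.29) and Col11a2 (-1.32) were lower as well. Col27a1, a fibrillar collagen of cartilage, differed less (-0.78). Under quantile normalization the Col2a1 difference was -0.48 and the median of the 7 was -1.10. The 7 were called lower in each alternative except the fit with reference regions and a random block, which made none.

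Of 20 cartilage proteoglycans and matrix proteins, 16 were called lower and 1 higher, with a median of -1.13. Matn1, the matrilin of mature cartilage, showed the largest called decrease by the naming rule. It averaged 67.9 and 150.9 in perichondrium and 314 and 425 in cartilage (-1.73, SE 0.09, adjusted p = 2.92e-25). Acan, the aggrecan core protein, averaged 69.5 and 127.3, against 186 and 244 (-1.17). Hapln1, the link protein that ties aggrecan to hyaluronan, averaged 60.2 and 99.4, against 192 and 224 (-1.39). Also lower were Cnmd, the vessel-inhibiting factor chondromodulin (-1.53), the secreted protein Cytl1 (-1.29), Matn3 (-1.23) and the sulfate donor synthetase Papss2 (-1.24). Thbs1, thrombospondin 1, was lower as well (-1.44), as were Susd5 (-1.68) and the BMP family member Gdf10 (-1.64). Scrg1 was the 1 member that was higher, at 48.2 and 35.5 in perichondrium, against 32.1 and 28.6 in cartilage (0.53, adjusted p = 0.000173). Cnmd and Cytl1 did not pass with robust variance moderation.

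Transcription regulators of chondrocytes were less uniform. Sox9 averaged 92.9 and 146.4 in perichondrium, against 184 and 229 in cartilage (-0.84), with regions chosen on Sox9 stain. Its partner Sox5 was lower (-0.52, adjusted p = 0.000779), and the third member of that trio, Sox6, did not pass at 12.4 and 12.6, against 13.1 and 12.6 (0.00, adjusted p = 0.997). The ubiquitin ligase Wwp2, which hosts a cartilage microRNA, was lower (-0.99). Trps1, a zinc finger repressor, was higher (0.48). Fgfr3, the receptor that restrains chondrocyte proliferation, averaged 14.6 and 19.9, against 30.9 and 33.5 (-0.90, adjusted p = 9e-09). The Sox5 call was lost without GOF replicate 1 (adjusted p = 0.12).

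**Figure D2:**
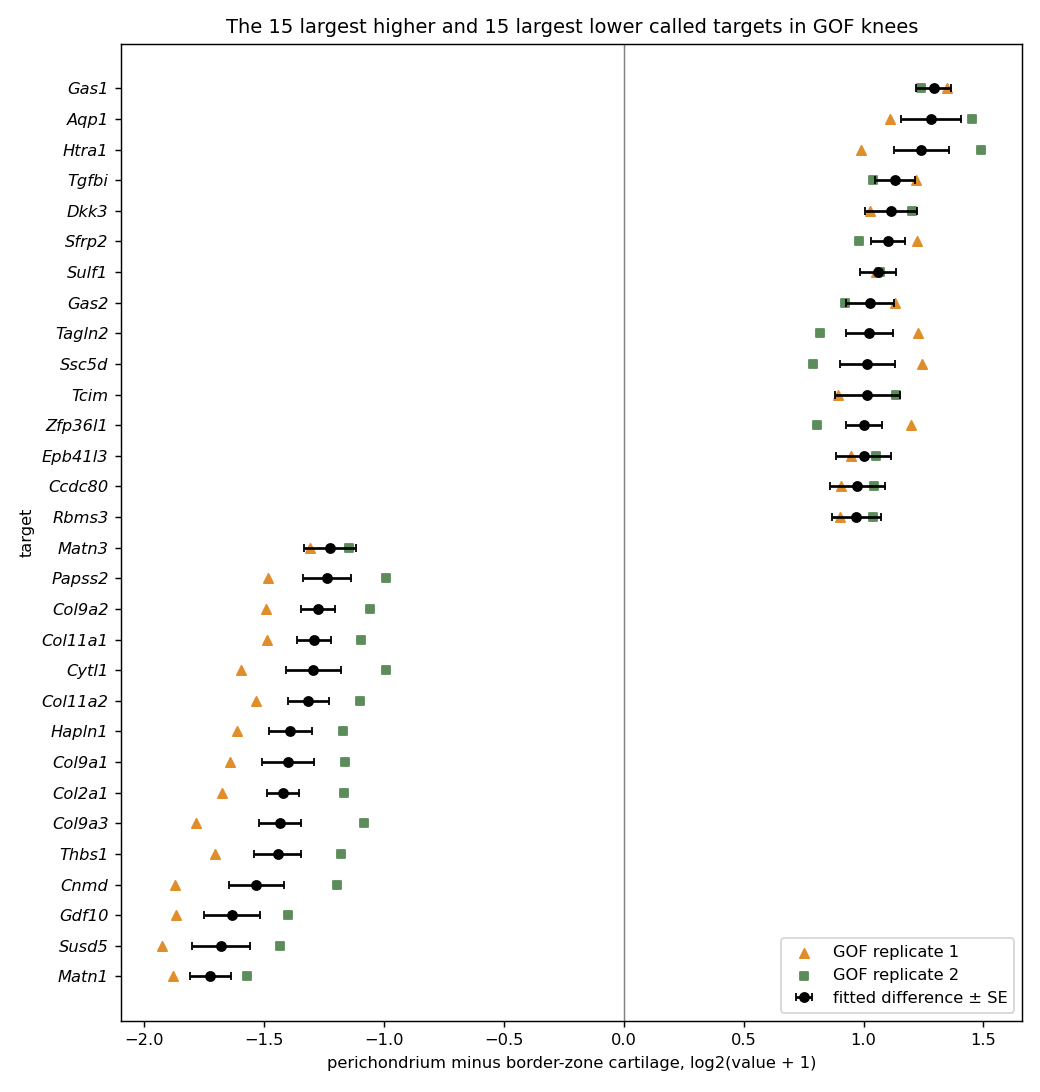
Fitted perichondrium minus cartilage difference in log2(value + 1) with its standard error, and the difference in each GOF animal, for the 15 higher and 15 lower called targets with the largest differences. Gas1 (1.29) and Matn1 (-1.73) lie at the ends. Every target has both animals on the same side of 0, because the choice of targets required it.

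The targets most above cartilage in GOF perichondrium had varied roles. Gas1, a membrane co-receptor for hedgehog ligands, averaged 114.2 and 138.1 in perichondrium, against 49.4 and 63.4 in cartilage. It was 2.45-fold higher (1.29, SE 0.07, adjusted p = 9.55e-23), and 6 of 14 and 10 of 12 perichondrium regions exceeded every cartilage region of their animal. Htra1, a secreted serine protease, averaged 22.7 and 25.8, against 10.98 and 8.62 (1.24). In replicate 2 all 12 perichondrium regions exceeded every cartilage region for Htra1, and in replicate 1 it was 9 of 14. The water channel Aqp1 was higher at 55.5 and 62.2, against 23.5 and 23.4 (1.28), and it did not pass with robust variance moderation. Zfp36l1, an RNA-binding protein that promotes mRNA decay, averaged 199.6 and 158.3, against 91.1 and 90.9 (1.00). Further members of the leading 15 were Gas2, Tagln2, Ssc5d, Epb41l3, Ccdc80, Rbms3 and Tcim, with differences between 0.97 and 1.03.

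Promoters of 4 of these genes are shown because Gas1 and Tgfbi were among the leading higher targets and Matn1 and Matn3 among the leading lower ones. They are the 250 bases before the annotated start, from RefSeq on GRCm38.p6, printed 5′ to 3′ along the gene's strand. Capitals mark each match to GGGCGG, the GC box, on either strand.
Gas1 promoter, chr13:60177536-60177785, minus strand: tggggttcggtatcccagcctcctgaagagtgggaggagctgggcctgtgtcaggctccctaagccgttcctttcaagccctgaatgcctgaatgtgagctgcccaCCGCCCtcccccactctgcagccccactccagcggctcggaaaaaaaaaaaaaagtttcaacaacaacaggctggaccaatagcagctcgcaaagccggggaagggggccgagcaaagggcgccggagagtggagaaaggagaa
Tgfbi promoter, chr13:56609336-56609585, plus strand: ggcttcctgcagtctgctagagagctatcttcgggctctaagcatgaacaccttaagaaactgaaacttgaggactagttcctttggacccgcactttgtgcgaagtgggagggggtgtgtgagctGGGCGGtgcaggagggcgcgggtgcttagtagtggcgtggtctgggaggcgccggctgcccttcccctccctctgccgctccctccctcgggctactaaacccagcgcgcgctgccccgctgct
Matn1 promoter, chr4:130944135-130944384, plus strand: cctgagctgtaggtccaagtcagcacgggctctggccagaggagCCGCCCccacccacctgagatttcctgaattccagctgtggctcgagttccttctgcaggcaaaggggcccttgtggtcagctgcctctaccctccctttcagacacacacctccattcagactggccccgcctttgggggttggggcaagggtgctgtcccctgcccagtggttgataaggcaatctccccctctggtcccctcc
Matn3 promoter, chr12:8947679-8947928, plus strand: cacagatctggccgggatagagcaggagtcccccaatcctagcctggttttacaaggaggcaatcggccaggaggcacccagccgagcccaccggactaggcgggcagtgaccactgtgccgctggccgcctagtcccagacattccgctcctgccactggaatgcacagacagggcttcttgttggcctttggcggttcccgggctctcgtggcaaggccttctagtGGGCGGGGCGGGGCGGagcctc
Counting back from the annotated start, the match begins at position -144 in Gas1, -124 in Tgfbi and -206 in Matn1. Matn3 has 3 overlapping matches, the nearest beginning at -12. A GC box was found in 68.7% of 201 promoters of targets called higher, 63.8% of 199 promoters of targets called lower, 47.1% of 15274 promoters of tested targets and 33% of all 27025 promoters in the table. The search also covered an EGR motif (GCGNGGGCG), a SOX motif (AACAAT) and a TATA motif (TATAAA) on both strands, none of which occurs in these 4 windows. The EGR motif was found in 9.45% of promoters of targets called higher, 10.1% of those called lower, 6.98% of those tested and 4.63% of all promoters. For the SOX motif the shares were 4.48%, 5.53%, 7.64% and 9.62% in the same order, and for the TATA motif 11.4%, 8.54%, 10.9% and 13%. A match describes letters and is no evidence of binding.

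Of 25 joint interzone genes, 12 were called higher and 2 lower in GOF perichondrium, with a median of 0.39. Over all targets 1.46% were higher and 1.32% lower. The list was chosen with earlier results of these data known, so the count only describes its members. Sfrp2, a secreted Wnt antagonist, averaged 157.7 and 165.3, against 73.2 and 84.7 in cartilage (1.10, SE 0.07, adjusted p = 8.23e-20). Its region types were nearly separate, with 13 of 14 and 11 of 12 perichondrium regions above every cartilage region of their animal. Sulf1, which removes sulfate from heparan sulfate, averaged 82.97 and 86.8, against 41.5 and 42.2 (1.06). Dkk3, a secreted member of the Dickkopf family, averaged 24.4 and 26.1, against 12.2 and 11.6 (1.11). Gdf5 itself was low, at 12.3 and 16.99, against 7.74 and 7.49 (0.71, adjusted p = 7.09e-05), and did not pass without GOF replicate 2 (adjusted p = 0.11). The transcription factors Osr2 (0.79) and Barx1 (0.64) were also higher. Nog, which blocks BMP ligands, was lower at 10.0 and 12.5, against 17.8 and 23.1 (-0.64). Of the perichondrium regions, 2 in replicate 1 also carried the interzone tag. Their Tgfbi values of 87.75 and 62.55 lay within the range of the 12 untagged regions (22.6 to 96.99). Their Egr1 values of 73.2 and 48.95 stood against 68.9 to 178.6 in the untagged regions, with 1 of the 2 below that range. The region at 48.95 had 76244 total counts, the fewest of the GOF perichondrium regions, and a negative probe value of 3.59, the highest among them. Without tagged regions 530 targets were called in all and 11 interzone genes were higher.

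Fibrous matrix genes were higher in part. Of 17 fibrous collagen chains, 9 were called higher and 2 lower (1.46% and 1.32% over all targets), with a median of 0.35. Col6a1, a chain of the microfibrillar type VI collagen, averaged 91.1 and 92.4, against 61.5 and 61.2 (0.59, adjusted p = 2.41e-07). Col3a1, the type III chain of loose connective tissue, averaged 285 and 270, against 240 and 224 (0.29, adjusted p = 0.000568, and 0.57 under quantile normalization). The type I chains, the most abundant collagen of bone and tendon, did not pass. Col1a1 averaged 183 and 260, against 192 and 220, a difference of 0.17 with a 95% interval of 0.01 to 0.33 (adjusted p = 0.438), and for Col1a2 the interval ran from -0.25 to 0.08. DESeq2 called 3 of the 17 higher.

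Of 24 elastic fibre and matricellular genes, 7 were called higher and 2 lower (1.46% and 1.32% over all targets), with a median of 0.10. Fn1, fibronectin, averaged 60.1 and 39.1, against 29 and 19.4 (0.89, adjusted p = 6.01e-10). Postn, periostin, averaged 44.8 and 46.5, against 28.3 and 25.6 (0.85). Its regions overlapped widely, with 0 of 14 and 2 of 12 perichondrium regions above every cartilage region. Fbn2, the fibrillin of embryonic microfibrils, averaged 65.1 and 59.2, against 37.7 and 35.1 (0.80). The lower members were Ccn2 (-0.99) and Ccn1 (-0.72), secreted proteins known as targets of the YAP coactivator.

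Of 7 PDGF ligands and receptors, Pdgfra and the ligand gene Pdgfc were called higher in GOF perichondrium (1.46% over all targets). Pdgfra averaged 87.6 and 83.2 in perichondrium, against 49.4 and 48.6 in cartilage, and was 1.83-fold higher (0.88, SE 0.08, adjusted p = 2.94e-13). In replicate 1, 11 of 14 perichondrium regions exceeded every cartilage region, and in replicate 2 it was 2 of 12. The sources used here do not say whether the probe tells the gain-of-function allele from the wild-type allele. Pdgfc averaged 22.1 and 13.7, against 12.5 and 12.02 (0.53, adjusted p = 0.0091), and did not pass without GOF replicate 1. Prrx1, the limb mesenchyme homeobox gene whose regulatory element drives the Cre, averaged 70.5 and 54.6, against 34.6 and 35.3 (0.94), and did not pass with robust variance moderation. The tendon factor Scx averaged 17.4 and 17.7, against 9.12 and 7.79 (0.92), and 3 of 15 tendon and ligament genes were called higher (1.46% over all targets). The target for the fluorescent reporter mCherry/tdTomato averaged 316 and 392, against 246 and 327 (0.32, adjusted p = 0.00269, and 0.69 under quantile normalization), and did not pass without GOF replicate 1 (adjusted p = 0.14). In control knees that target was at 16.6 and 14.6 in perichondrium and 16.4 and 13.3 in cartilage.

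MAP kinase response genes were called higher in GOF perichondrium in 8 of 32 cases and lower in none (1.46% and 1.32% over all targets). The median of the list was 0.30. In control perichondrium 4 of the 32 were called higher and 2 lower, with a median of -0.057, so calls in GOF knees alone do not mark a difference between genotypes. Egr1, an immediate early transcription factor, averaged 101.4 and 59.9, against 54.8 and 46.5 in cartilage (0.68, SE 0.12, adjusted p = 7.09e-05). The animals differed, since 6 of 14 perichondrium regions of replicate 1 but 0 of 12 of replicate 2 exceeded every cartilage region. That count rests on the highest cartilage region (90.65 in replicate 2). The Egr1 medians of replicate 2 were 66.4 in perichondrium and 46.7 in cartilage. Spry2, a feedback inhibitor of receptor tyrosine kinases, averaged 45.7 and 28.4, against 23.3 and 18.8 (0.83, adjusted p = 6.66e-08). For Spry2, 11 of 14 and 0 of 12 regions lay above every cartilage region, with replicate 2 medians of 28.3 in perichondrium and 17.6 in cartilage. Its relative Spry1 averaged 20.9 and 15.1, against 10.0 and 7.06 (1.03). The AP-1 subunits Jun (0.55), Junb (0.69) and Fosl2 (0.77), the transcription factor Egr3 (0.68) and the ERK phosphatase Dusp6 (0.64) made up the remaining calls. The count was 5 of 32 without GOF replicate 1, where Egr1 (adjusted p = 0.0623), Egr3 and Dusp6 did not pass. Junb did not pass without GOF replicate 2, and Egr1 also failed with robust variance moderation and in DESeq2.

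**Figure D3:**
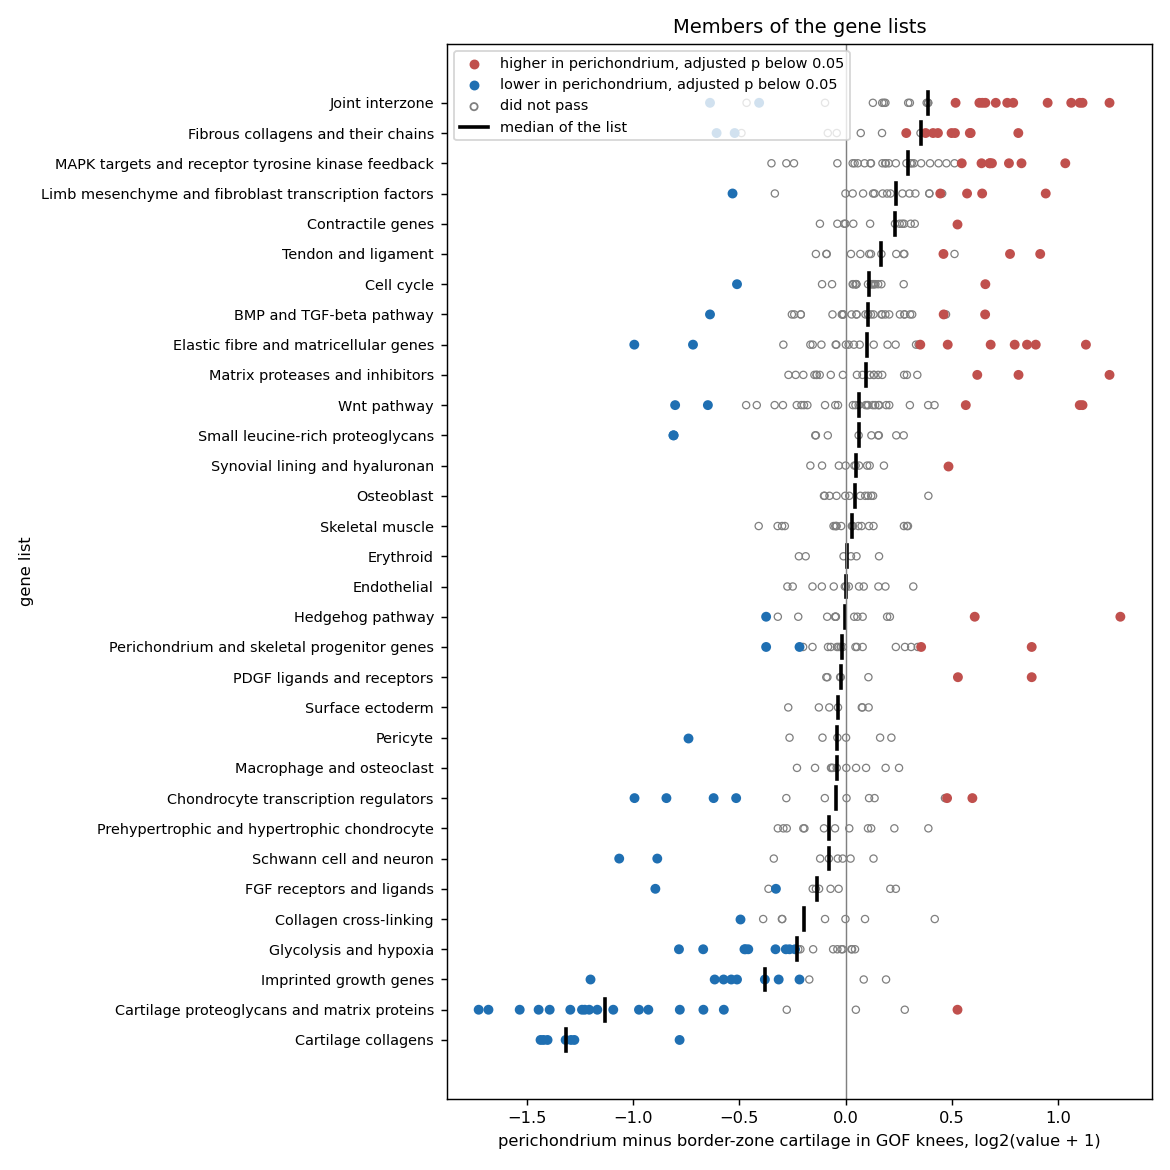
Perichondrium minus cartilage difference in log2(value + 1) in GOF knees for each measured member of the 32 gene lists, ordered by list median (black bar). Filled points passed an adjusted p of 0.05. Cartilage collagens sit at the bottom (median -1.32) and joint interzone genes at the top (median 0.39).

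Signaling pathways had calls at several levels. Few members of each list passed, beside 1.46% called higher and 1.32% called lower over all targets. Among 14 hedgehog genes, the co-receptors Gas1 and Cdon were higher, and Cdon averaged 40.4 and 39.5 in perichondrium, against 24.96 and 25.75 in cartilage (0.61, adjusted p = 5.87e-07). Ptch1, the hedgehog receptor and a target of the pathway, averaged 44.6 and 53.6, against 70.2 and 59.3 (-0.37, adjusted p = 0.0139), and its call was lost without GOF replicate 1 or either control. Among 31 Wnt genes, 3 were called higher (Wnt11, Sfrp2 and Dkk3) and 2 lower, and the Wnt11 call was lost without GOF replicate 1. Both lower members are secreted Wnt antagonists. Sfrp1 averaged 17.5 and 25.2, against 32.2 and 38.3 (-0.65), and Frzb averaged 20.9 and 21.1, against 36.1 and 39.6 (-0.80). In the BMP and TGF-beta list of 30 genes, the BMP antagonist Chrd was higher (0.66, adjusted p = 0.000766), as was the receptor Tgfbr2 (0.46, not passing without GOF replicate 1 or either control), and Nog was the 1 lower member. Of 20 cell cycle genes, cyclin D2 (Ccnd2) was called higher (0.66, adjusted p = 6.07e-10) and the cell cycle inhibitor Cdkn1c lower (-0.51, adjusted p = 5.48e-10). Under quantile normalization the Cdkn1c difference was -0.34.

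Several imprinted growth genes and members of a glycolysis and hypoxia list were lower in GOF perichondrium. Of 11 measured imprinted genes, 8 were called lower and none higher (1.32% and 1.46% over all targets), with a median of -0.38. Peg10, a retrotransposon-derived gene, averaged 63.9 and 75.4, against 160.2 and 169.9 (-1.20, SE 0.08, adjusted p = 2.17e-18). Peg3 (-0.62), Mest (-0.57, and -0.32 under quantile normalization) and Grb10 (-0.54) were also lower, whereas Igf2 averaged 1017 and 1269, against 961 and 1197, and did not pass (0.09, adjusted p = 0.599). Dlk1 was called lower (-0.22), but quantile normalization turned its difference to 0.10 and the call was lost without GOF replicate 1 or either control. Of 20 glycolysis and hypoxia genes, 9 were called lower, among them the collagen prolyl hydroxylase subunits P4ha1 (-0.78) and P4ha2 (-0.67, adjusted p = 0.201 with robust variance moderation) and the glucose transporter Slc2a1 (-0.46, not passing without GOF replicate 1). The glycolytic enzyme Eno1, also among the 9, had a difference of -0.24, and of 0.05 under quantile normalization. Under that normalization the enzymes Tpi1 (-0.13, adjusted p = 0.584) and Pgam1 (-0.16, adjusted p = 0.425) did not pass either. Hk2 did not pass without tagged regions (-0.46, adjusted p = 0.066). The glycolysis count was 5 without GOF replicate 2 and without either control replicate, and 1 in DESeq2. Gapdh was at 275 and 268, against 270 and 290 (-0.06, 95% interval -0.18 to 0.06).

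The labelled tissues were set against cell type markers. Regions were chosen on Sox9 stain, and the marker sets include Sox9 and the supplied markers Matn4 and Tgfbi. The sums are therefore no independent check of the labels. The 12 cartilage markers summed to 1400 and 2667 in GOF perichondrium, against 4474 and 5668 in cartilage, and 11 of 12 were called lower. The 11 markers of perichondrium and fibrous tissue summed to 816 and 885, against 694 and 712. Of them, 5 were called higher (Col3a1, Postn, Tgfbi, Fbn2 and Prrx1) and 1 lower (Lum, lumican). Col1a1, Col1a2, Twist1, Dcn and Thbs2 did not pass, and the last 2 were at 9.13 or less in both region types. A separate list of perichondrium and skeletal progenitor genes showed no common direction. Of its 20 measured members, 2 were called higher (Mfap4 and Pdgfra) and 2 lower (Ptch1 and Dlk1), with a median of -0.017. The 7 interzone markers summed to 327 and 363, against 174.2 and 196. None of the 5 endothelial, 5 muscle, 5 macrophage or 5 osteoblast markers passed, and their sums were between 20.95 and 31.2 in each animal and region type. The 3 measured erythroid markers summed to 29.8 and 84.5, against 36.7 and 62.03, with no call. Of 5 Schwann cell and neuron markers, Sox10 and S100b were lower, and S100b is also known in chondrocytes.

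Regions within each type formed a range. The summed value of the 7 cartilage collagens ran from 764 to 1859 in perichondrium of replicate 1 (median 1298) and from 1807 to 4847 in replicate 2 (median 2178). In cartilage it ran from 1337 to 7774 (median 4682) and from 3520 to 8477 (median 5422). In replicate 1, 6 of 14 perichondrium regions reached the lowest cartilage region, and in replicate 2 it was 2 of 12, while none reached the cartilage median. Within cartilage, Tgfbi ran opposite to the collagen sum, with Spearman's rho of -0.85 over 15 regions of replicate 1 and -0.50 over 16 of replicate 2. Within perichondrium rho was -0.48 over 14 regions and -0.41 over 12. Regions of 1 animal share a section and the scaling of each region ties its values together, so these are descriptions. In GOF knees, 3 cartilage regions of replicate 1 and 2 perichondrium regions of replicate 2 lay nearer to the collagen median of the other type. Without such regions in either genotype, a choice made after seeing the data, 765 targets were called, 404 of them higher.

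**Figure D4:**
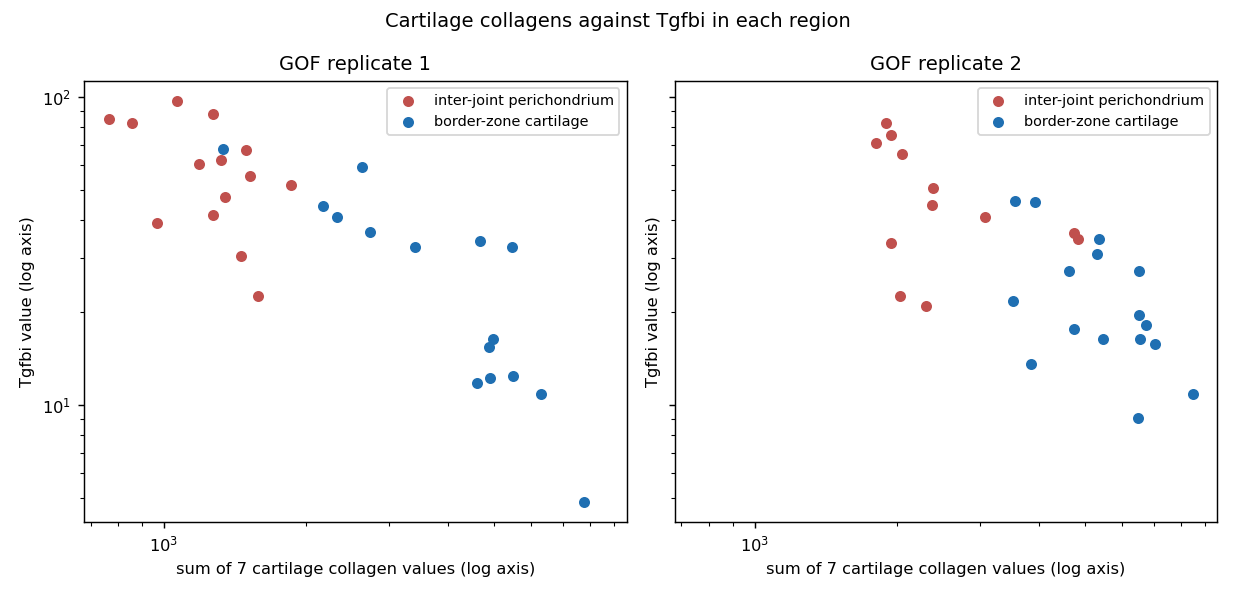
Sum of the 7 cartilage collagen values (x, log axis) against Tgfbi (y, log axis) in each region of GOF replicates 1 and 2. Perichondrium regions lie at lower collagen sums (764 to 1859 and 1807 to 4847) than most cartilage regions, with overlap in both animals.

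The region difference was then compared between genotypes, since the receptor allele distinguishes them. Tgfbi and 9 joint interzone genes had a smaller or more negative perichondrium minus cartilage difference in GOF knees than in control knees, and 4 MAP kinase response genes had a more positive one. In control knees 696 targets (3.6%) differed between perichondrium and cartilage. The difference itself differed between genotypes for 73 targets (0.377%), of which 16 were more positive (0.0827%) and 57 more negative (0.295%) in GOF. That count was 5 without control replicate 1 and 5 without control replicate 2, 22 in DESeq2, and 0 without the animal block, where 493 passed an unadjusted p of 0.05. None of the 7 cartilage collagens was among the 73, and for Col2a1 the difference between genotypes was 0.03 (SE 0.10, adjusted p = 0.999). Without GOF replicate 1, however, 3 of the 7 were called more positive in GOF, and without GOF replicate 2, 2 were called more negative.

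Among the 57, Tgfbi averaged 59.3 and 48.1 in perichondrium and 28.8 and 23.1 in cartilage of GOF knees, against 131.5 and 152.4 in perichondrium and 37.2 and 42.2 in cartilage of control knees. Its region difference was 1.13 in GOF and 1.90 in control knees (difference -0.77, SE 0.12, adjusted p = 5.37e-05). In control knees all 19 and all 16 perichondrium regions exceeded every cartilage region for Tgfbi. Over all targets, 0 had separate regions in both GOF animals in either direction, and 5 were separate and higher (0.0258%) and 1 separate and lower (0.00517%) in both control animals, a contrast that was not tested. Of 25 interzone genes, in a list chosen with earlier results of these data known, 9 had a smaller or more negative difference in GOF knees. None had a larger one. For Gdf5 it was 0.71 in GOF and 1.67 in control knees (difference -0.96, adjusted p = 0.00177), with GOF perichondrium at 12.3 and 16.99, against 39.2 and 44.9 in control perichondrium. Sfrp2 (-0.63), Sulf1 (-0.52) and Dkk3 (-0.72) were also among the 9. The largest negative values were for Inhba, an activin subunit (-1.04), the collagen-binding integrin Itga11 (-1.04), Hhipl1 (-1.03) and the actin regulator Fhod3 (-1.01). Next were Tgfb2 (-0.95), the R-spondin receptor Lgr5 (-0.93), the sulfotransferase Chst5 (-0.92), the myosin kinase Mylk (-0.91) and the fibronectin receptor subunit Itga5 (-0.87). Beyond the losses without a control animal, Itga11 did not pass with robust variance moderation (adjusted p = 0.338) and was -0.67 without GOF replicate 1. Fhod3 (adjusted p = 0.196) and Lgr5 (adjusted p = 0.0597) did not pass without GOF replicate 2, nor Chst5 without tagged regions (adjusted p = 0.0538). For each of these 9 both GOF perichondrium means lay below both control perichondrium means. The 9 were chosen for a negative difference in the same animals, so that order is no separate support. For the interzone list the count was 1 without control replicate 1 and 0 without control replicate 2.

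More positive in GOF knees were 4 of the 32 MAP kinase response genes, with 1, Jun, more negative (0.0827% and 0.295% over all targets). Jun did not pass under quantile normalization (-0.46, adjusted p = 0.139) or without tagged regions (-0.49, adjusted p = 0.0796). Its value was -0.64 without control replicate 1, and -0.43 without control replicate 2 and without GOF replicate 1. Egr1 averaged 101.4 and 59.9 in perichondrium and 54.8 and 46.5 in cartilage of GOF knees, against 13.4 and 9.78 in perichondrium and 13.9 and 13.2 in cartilage of control knees. Its region difference was 0.68 in GOF and -0.14 in control knees (difference 0.82, SE 0.17, adjusted p = 0.00738). For Egr1 the GOF means lay above the control means in both region types. For Spry2 the region difference was 0.83 in GOF and -0.07 in control knees (difference 0.90, adjusted p = 0.000559), and for Junb 0.69 and -0.22 (difference 0.91). Etv5, an ETS factor induced by FGF signaling, was lower in control perichondrium (-1.03) and did not pass in GOF (-0.35, adjusted p = 0.124). The Etv5 difference between genotypes did not pass without tagged regions (0.65, adjusted p = 0.0741). Nor did it pass without regions nearer to the other type (0.65, adjusted p = 0.0727). Each of these 4 calls was lost without either control replicate, and Egr1 had an adjusted p of 0.0773 without control replicate 1, 1 without control replicate 2, 0.114 without GOF replicate 1 and 0.999 with robust variance moderation.

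Other targets with a more positive difference included Penk, the precursor of enkephalin peptides, and Rtl3, a retrotransposon-derived gene. Penk averaged 63.3 and 55.1 in perichondrium and 43.65 and 38.99 in cartilage of GOF knees, against 40.1 and 39.7 in perichondrium and 53.3 and 60.4 in cartilage of control knees. Its direction differed between genotypes (0.53 in GOF and -0.40 in control, difference 0.92, adjusted p = 3.97e-06). Rtl3 had 73.8 and 70.1 in GOF perichondrium and 73.6 and 78.8 in GOF cartilage, against 41.6 and 34.4 in control perichondrium and 75.99 and 70.3 in control cartilage (difference 0.92, adjusted p = 1.81e-06). Both calls held without any 1 animal. Lgi1, a secreted protein known from synapses, had 17.4 and 12.3 in GOF perichondrium, against 5.21 and 5.64 in control perichondrium (difference 1.20). The cadherin Cdh3 (0.96), Tcim (0.91), Col25a1 (0.98) and the protease inhibitor Serpina3n (0.99) completed the group of 10, and each of these 4 lost its call without either control replicate. Tcim (adjusted p = 0.0626) and the MAP kinase response gene Junb (adjusted p = 0.124) also did not pass without GOF replicate 2. For Serpina3n the region differences were -0.51 in GOF and -1.50 in control knees, and the GOF call was lost without any 1 of the 4 animals (adjusted p of 0.0533 to 0.192).

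**Figure D5:**
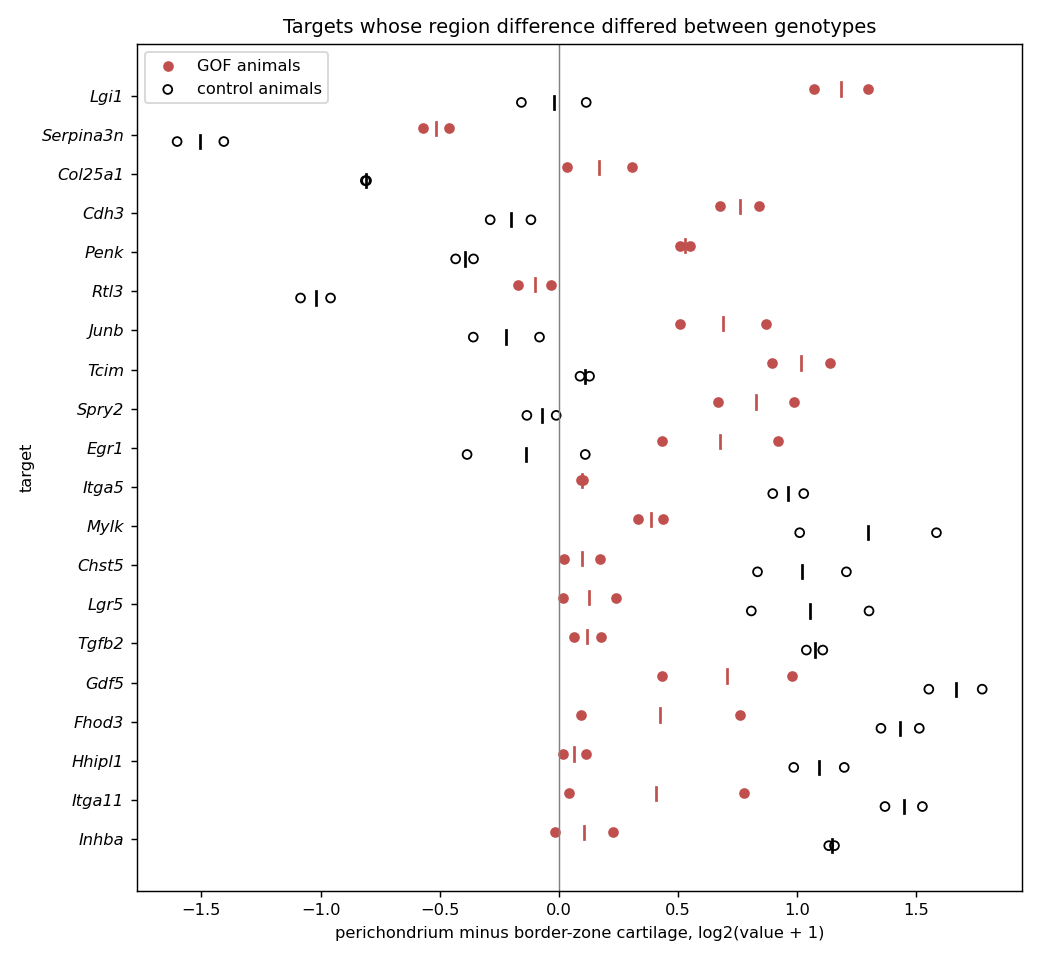
Perichondrium minus cartilage difference in log2(value + 1) in each GOF animal (filled points) and each control animal (open points), with bars at the fitted value, for the 10 targets most positive and the 10 most negative in the difference between genotypes. Lgi1 (1.20) is at the top and Inhba (-1.04) at the bottom. The GOF and control points of each target do not overlap, which largely follows from choosing targets by this difference.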

How the data were processed

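Per the file headers, the authors deposited a signal per target and region, not log-transformed, after scaling regions so that their upper quartiles match. The submitters' processing notes name Seurat and mm10 without saying what each was used for. No counting pipeline was given in the sources used here. Regions were tied to animals by scan name and to types by tags in the headers. The no-template control was not analysed here. Dividing each column by its smallest step gave whole recovered counts for 99.98% of values (tolerance 0.01 of a count).

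For each animal and region type, the mean of log2(value + 1) over regions was taken. The 14 means of perichondrium, border-zone cartilage, inter-joint space and fusion entered 1 linear model in limma (version 3.58.1, R 4.3.3; lmFit and trended eBayes) in which the animal was a fixed block, because region types came from the same animals. Residual degrees of freedom were 5 and the prior added 57.3. Benjamini-Hochberg adjustment covered 19346 targets, with a threshold of 0.05. Labels describe the replicates as biological. The fit was also run on averages simulated with independent errors from its own residual spreads. Such data cannot test whether a spread shared across region types and genotypes holds. Alternatives were edgeR 4.0.16 and DESeq2 1.42.0 on recovered counts summed per animal and type, other samples in the fit, no block, other pseudocounts, filters and normalizations, leaving out each animal, and, chosen after seeing the data, robust moderation and leaving out regions near the other type.

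Named targets were the 15 largest differences each way among calls with the same direction in both GOF animals and a value of at least 20 in the higher type, the markers, up to 4 called and 2 uncalled members per list, and up to 10 targets each way for the difference between genotypes. Others are named as list members. The members and gene lists were chosen with earlier results of these data known.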

Additional observations from a re-analysis of the deposited data

Results flagged for a closer look

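The 21 targets listed here had a perichondrium minus cartilage difference that differed between GOF and control animals. The test was the interaction term of the limma fit at an adjusted p of 0.05. The listed targets are only part of the 73 that passed, and other named targets, among them Sfrp2, Sulf1, Dkk3 and Gas1, passed as well. Values are GOF minus control on the log2 scale. The value was 0.82 for Egr1, 0.90 for Spry2 and 0.91 for Junb, the MAP kinase response genes. It was 1.20 for Lgi1, 0.99 for Serpina3n, 0.98 for Col25a1, 0.96 for Cdh3, 0.92 for Penk, 0.92 for Rtl3 and 0.91 for Tcim. Among matrix, joint and signaling genes it was -0.77 for Tgfbi, -0.96 for Gdf5, -0.95 for Tgfb2, -1.04 for Inhba and -0.93 for Lgr5. It was -1.04 for Itga11, -0.87 for Itga5, -1.01 for Fhod3, -0.91 for Mylk, -1.03 for Hhipl1 and -0.92 for Chst5. Penk and Rtl3 passed without any 1 animal, and each of the other listed targets did not pass without at least 1 of the control animals.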

How the results depend on the processing

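Values are the percent of 19346 targets called. Between GOF perichondrium and cartilage, 2.78% became 0.0103% with all 22 averages and a random animal block, 1.22% with no replicate block and 1.29% in DESeq2, and leaving out 1 animal gave 2.03% to 2.68%. For the difference between genotypes, 0.377% became 0.579% with perichondrium and cartilage alone, 0.615% in edgeR, 0.114% in DESeq2 and 0 in limma both with a random block over 22 averages (22 targets at an unadjusted p of 0.05) and with no replicate block (493 unadjusted). Leaving out 1 animal gave 0.0258% to 0.558%. The other alternatives lay within 1.5 times the first value. The paired fit, with the animal as a block, uses region types from the same animals. Among called list members and named targets, the direction between region types held in each alternative except for Dlk1 and Eno1, which turned to 0.104 and 0.05 under quantile normalization. Subtracting the negative probe gave 0.99 for Chrd, 1.09 for Egr3 and 1.09 for Junb, a pseudocount of 5 gave 0.44 for Egr3 and 0.37 for Wnt11, and edgeR gave 0.56 for Postn. For the difference between genotypes, the same subtraction gave -1.43 for Chst5, -1.59 for Inhba and -1.47 for Tgfb2, and the same pseudocount gave -0.61 for Chst5, -0.64 for Hhipl1 and -0.68 for Inhba. The cause of these changes was not tested. Targets at a few units lie near the negative probe, and the size of their differences depended on how background was handled.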
